A study of Oryza sativa with 6 samples.

Results

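The comparison described here sets the mesocotyl transcriptome of rice seedlings after 60 min of light against that of seedlings kept for 5 days in darkness. Of 35500 loci in the deposited table, 20962 reached at least 1 FPKM (fragments counted per locus, scaled by transcript length and library total) in either of these 2 libraries and were compared. Differences are log2((FPKM + 1)/(FPKM + 1)), 60 min minus 5-day dark, which understates differences of low loci. A locus is called higher where the difference is at least 1, that is 2-fold, lower where it is -1 or less, and was also marked where its 60-min value lay outside the range of all 3 dark libraries. Throughout, 2-fold refers to this difference with 1 FPKM added, so low loci can differ by more in plain FPKM and still lie within it. The edge of the 1 FPKM rule held 463 loci between 1 and 1.1 FPKM, which were kept, and 331 between 0.9 and 1 FPKM, which were not.

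The plants were dark-grown seedlings of the indica rice cultivar P25, and the tissue is labelled mesocotyl throughout. The 5-day dark group had no light, and the 60-min group had the same 5 days of darkness followed by 1 h of light; no other agent or genotype is given. The other 4 libraries came from seedlings after 1 and 3 days of darkness and after 5 days of darkness followed by 30 min or 24 h of light. Each group is 1 RNA pool sequenced as 1 library, so there is no replicate check, no p-value and no error on any value, and every statement describes these libraries only. The title of the series puts the question of how light stops the mesocotyl from lengthening. Below, dark libraries are always given in the order 1, 3 and 5 days, and light libraries in the order 30 min, 60 min and 24 h; where a locus has 2 values, the first is 5-day dark and the second 60 min.

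Rice seedlings carry the shoot on a stem-like mesocotyl, which joins the seed to the base of the coleoptile. In darkness it lengthens by cell division and elongation and lifts the shoot towards the soil surface, and light stops this growth. Light is sensed by phytochromes, cryptochromes and phototropins. In darkness the ubiquitin ligase COP1 removes the transcription factor HY5 while phytochrome-interacting factors (PIFs) hold back greening genes. In light HY5 accumulates, PIFs are degraded, and the nuclear genes for chlorophyll synthesis and light harvesting are switched on.

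The 2 libraries compared were alike in scale but not in marker content. Library sums were 352069 FPKM for the 5-day dark library and 351188 for the 60-min library, with 18612 and 18569 loci at 1 FPKM or more. Over the 20962 loci, Pearson's r of log2(FPKM + 1) with the 60-min library was 0.782 for the 5-day dark library and 0.846 for the 1-day dark library, a description over loci that share mapping and length. For the light libraries, r with the 60-min library was 0.798 at 30 min and 0.812 at 24 h, while r between those 2 was 0.915. Counted over all 35500 loci, 433 stood at least 2-fold above the other 4 libraries in both the 1-day dark and the 60-min library, and 480 did so in both the 5-day dark and the 60-min library. For the other 13 pairs of libraries such counts ran from 15 to 101. All 433 were called higher at 60 min by construction, because the 5-day dark library is among their other 4. Of the 480, where it is not, 63 were called higher.

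Marker loci of the shoot surface and of green tissue differed between the libraries in the same pairs, whereas those of dividing cells did not. No list holds a marker of the mesocotyl itself, so the labelled tissue was not checked directly. Shoot surface and cuticle loci summed to 1822, 461 and 204 FPKM in the dark libraries and 365, 878 and 287 FPKM in the light libraries. Among their defining members, protodermal factor 1 (ZS01g0106400), the epidermal homeobox factor ROC3 (ZS10g0474000) and the wax enzyme ECERIFERUM 1 (ZS02g0498800) were at or near 0 in 4 libraries and present at 1 day and at 60 min. Not all members did so: 10 of the 27 measured stood at least 2-fold above the other 4 libraries at both 1 day and 60 min. The member with the lowest difference, a lipid-transfer protein 1 locus (ZS12g0022700, -4.56), was lowest at 60 min. Green tissue loci summed to 149, 60.8 and 608 FPKM in the dark libraries and 81.8, 1233 and 113 FPKM in the light libraries, so that the 5-day dark and the 60-min libraries were the highest. Loci of dividing cells summed to 1293, 609 and 981 FPKM in the dark libraries and 1407, 2665 and 1710.3 FPKM in the light libraries. Of 27, 14 and 30 measured loci of these lists, 17, 8 and 19 were at least 2-fold higher at 60 min and 2 in each list were lower. The green tissue list includes all 7 antenna loci described below, all of them higher, which summed to 62.6 FPKM at 5-day dark and 796 FPKM at 60 min. The list of dividing cells includes 19 histone and 10 cell cycle loci described below. Histones summed to 808 and 2379 FPKM in the same 2 libraries. Neither list is thus separate from those results.

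The remaining marker lists were less far apart. Root loci summed to 136 FPKM in the 5-day dark library and 83.1 FPKM at 60 min, with 0 higher and 4 lower of 13, and a median of -0.80, or 0.11 and 0.53 with the 3-day and 1-day controls. SHORT-ROOT 1 (ZS07g0485700), a defining member named after its values were seen, was listed at 2.14 and 0 FPKM. Vascular loci summed to 499 and 351 FPKM (2 higher and 4 lower of 16), and seed loci to 47.1 and 28.9 FPKM (1 and 2 of 5). Meristem and young leaf loci summed to 127 and 118 FPKM (5 and 3 of 14). The part that differing cell types played in the results below was not tested, and in these pools a larger number of cells of a type cannot be told apart from more RNA per cell.

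**Figure D1:**
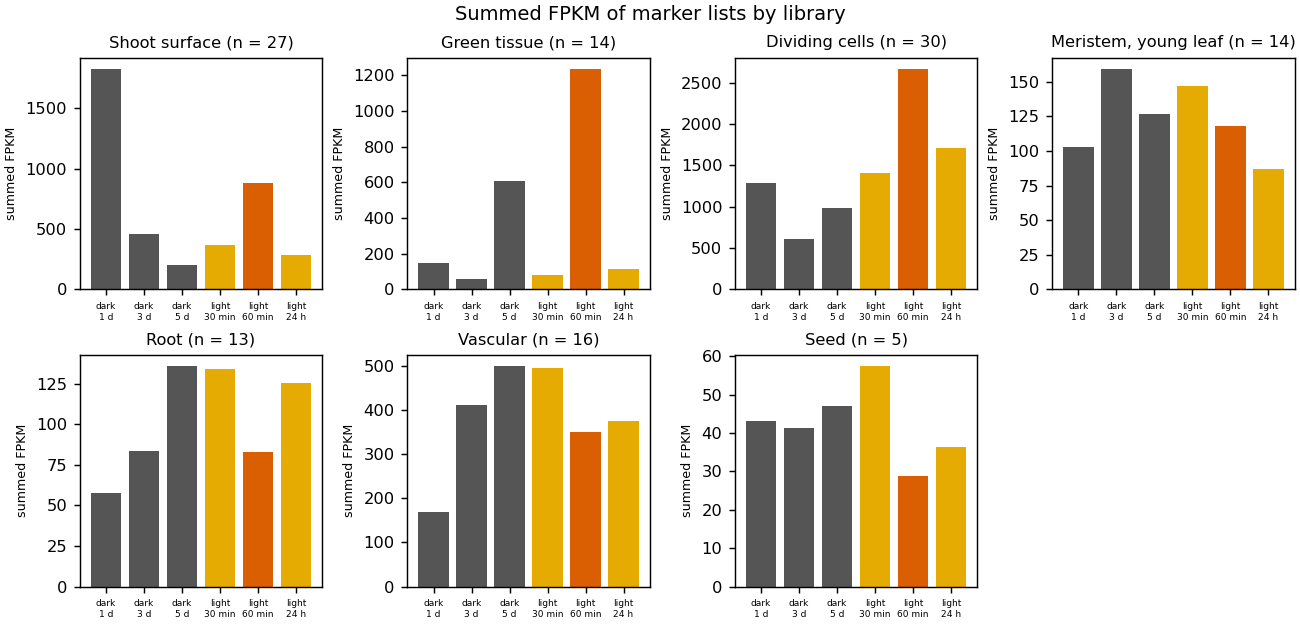
Summed FPKM of the measured loci of 7 marker lists (bars, from 0) in each of the 6 libraries, with the number of loci in each panel title; grey bars are dark libraries, orange bars light libraries, and the darker orange bar is 60 min. The 60-min library was second to the 1-day dark library in shoot surface loci and held the highest sums for green tissue and dividing cells. The green tissue list includes all 7 antenna loci, which summed to 62.6 FPKM in the 5-day dark library and 796 FPKM at 60 min.

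Of the 20962 loci, 3512 (16.8%) were at least 2-fold higher at 60 min and 3039 (14.5%) at least 2-fold lower, while 14411 lay between the limits. The median difference over all of them was 0.06, with quartiles at -0.59 and 0.68, and each list median below is to be read beside it and beside these shares. List medians depended on the dark control: with the 1-day dark library as control 29 of 68 had the other sign, and with the 3-day library 15 of 68. At 4-fold, 885 were higher and 486 lower. Higher loci mostly lay outside the range seen in darkness and lower loci mostly inside it. The 60-min value exceeded all 3 dark libraries at 2822 of the higher loci (13.5% of all loci compared) and lay below all 3 at 917 of the lower loci (4.37%). With libraries rescaled by the median of ratios, these counts were 2076 of 3068 higher and 1180 of 3071 lower loci. In the values as reported, 690 higher loci lay inside the dark range, and the 1-day value was at or above the 60-min value at 636 of them. Of the 2122 lower loci inside the range, the 1-day value was at or below it at 1936. The 60-min value was the highest of all 6 libraries at 2448 of the higher loci and the lowest at 728 of the lower ones. A value of exactly 0 may be an estimate that failed, so no fold is given against one; 573 higher loci were listed at 0 in the 5-day dark library and 730 lower loci at 0 at 60 min.

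**Figure D2:**
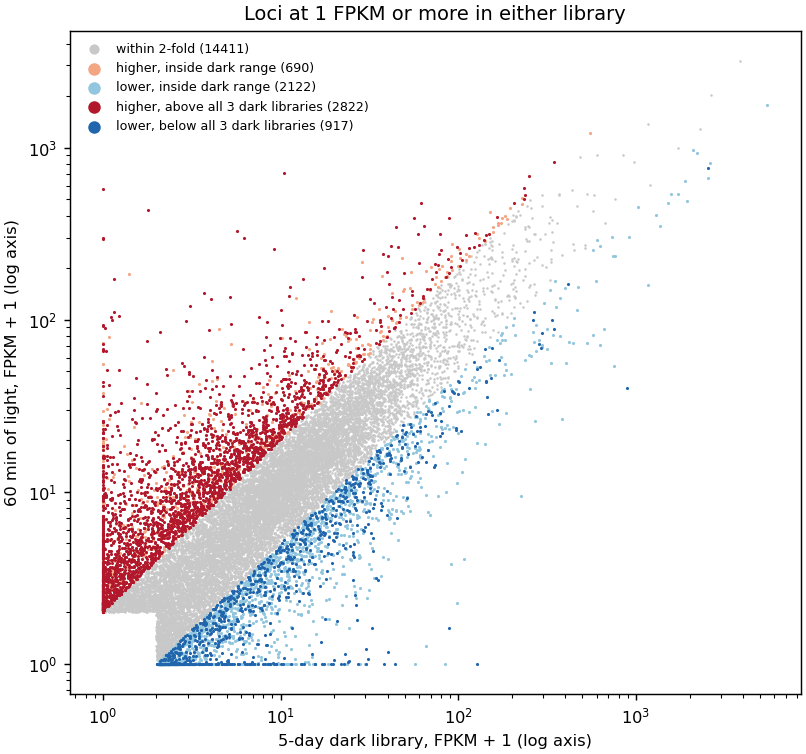
Each point is 1 of 20962 loci, with FPKM + 1 in the 5-day dark library on the x axis and after 60 min of light on the y axis (both log axes). Red and orange loci are at least 2-fold higher and blue loci at least 2-fold lower, with the darker shade for those outside the range of the 3 dark libraries (2822 and 917).

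Loci for light harvesting were far higher at 60 min. All 7 measured chlorophyll a-b binding (antenna) loci, whose proteins hold chlorophyll and pass light energy to the photosystems, were higher, above every dark library and highest of all 6 libraries at 60 min, with a median difference of 3.49 against 0.06 over all loci. Chlorophyll a-b binding protein 2 (ZS01g0462400) stood at 0.152, 0 and 4.66 FPKM in the dark libraries and at 0.118, 327 and 4.91 FPKM in the light libraries, a difference of 5.86. Only the 60-min library passed 5 FPKM there. Chlorophyll a-b binding protein (ZS03g0506800) stood at 0.318, 0 and 4.22 FPKM in the dark libraries and at 0.0279, 135 and 2.17 FPKM in the light libraries. The locus for protein 1B-21 (ZS06g0257900) stood at 0.547, 0 and 9.07 FPKM in the dark libraries and at 0, 112 and 2.29 FPKM in the light libraries. The protein 1 locus (ZS09g0198600, 0 and 12.9 FPKM) was listed at 0 in each of the other 5 libraries. CP29.1 (ZS07g0459100, 12.9 and 83.6 FPKM) and protein 8 (ZS02g0110600, 6.54 and 41.7 FPKM) already had transcripts at 5 days of darkness, with differences of 2.60 and 2.503. The remaining one, the merged locus of protein 7 (ZS07g0476900;ZS07g0477000, 25.1 and 84.1 FPKM), ranged from 16.4 to 84.1 FPKM over the 6 libraries. All 7 are also members of the green tissue marker list. Against the 3-day and 1-day dark libraries the list medians were 6.40 and 6.16, and the median against the 5-day library was 2.30 with a pseudocount of 5 FPKM.

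Early light-inducible proteins, which bind chlorophyll and protect forming photosystems, were at or under 0.501 FPKM in the dark and 30-min libraries. The low molecular mass form (ZS07g0092400) stood at 0.0349, 0 and 0.0217 FPKM in the dark libraries and at 0, 9.46 and 1.44 FPKM in the light libraries. The high molecular mass form (ZS01g0151600) was listed at 0, 0 and 0 FPKM in the dark libraries and at 0.501, 11.4 and 3.84 FPKM in the light libraries. Both were highest at 60 min. Among GLK factors and chlorophyll synthesis enzymes, 5 of 10 measured were higher by 2-fold or more and 0 lower (median 1.03), all 5 of them above every dark library. GLK2 (ZS01g0144900), a factor that activates nuclear photosynthesis genes, stood at 1.59, 0.0139 and 2.72 FPKM in the dark libraries and at 0.0559, 9.42 and 0.0668 FPKM in the light libraries. Protochlorophyllide reductase B (ZS10g0390600), the light-driven step of chlorophyll synthesis, stood at 1.05, 0.307 and 15.8 FPKM in the dark libraries and at 0, 43.4 and 1.56 FPKM in the light libraries. Both were higher at 5 days and at 60 min than at 30 min and 24 h. Magnesium-chelatase subunit ChlH (ZS03g0216600;ZS03g0216700, 6.01 and 34.1 FPKM), which commits porphyrin to chlorophyll, and chlorophyllide a oxygenase (ZS10g0458400, 4.41 and 21.1 FPKM), which makes chlorophyll b, differed by 2.32 and 2.03. The list medians against the 3-day and 1-day dark libraries were 3.13 and 2.13.

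Photosystem and electron transport loci were higher less uniformly, and carbon fixation loci went the other way. Of photosystem and electron transport loci, 7 of 13 measured were higher by 2-fold or more and 1 lower (median 1.00). Plastocyanin (ZS06g0010500), which carries electrons to photosystem I, was listed at 0.712, 0 and 0 FPKM in the dark libraries and at 0.0958, 42.6 and 2.39 FPKM in the light libraries. Photosystem II protein W (ZS01g0635700, 2.53 and 13.9 FPKM), the 22 kDa protein that dissipates excess light as heat (ZS04g0813000, 1.1 and 5.94 FPKM) and photosystem I subunit XI (ZS12g0234700, 8.81 and 22.3 FPKM) were also higher. The 1 lower locus, named after its values were seen, was a photosystem II 10 kDa polypeptide (ZS07g0055100, 1.28 and 0.127 FPKM). A second locus of that name, ZS08g0122700, also chosen after its values were seen, was higher, at 27.9 and 56.8 FPKM. Of carbon fixation loci, none was higher and 4 of 8 were lower (median -1.15). The Rubisco small subunit (ZS12g0195100) stood at 13.9, 0.142 and 125 FPKM in the dark libraries and at 0.473, 42.3 and 0.43 FPKM in the light libraries. The chloroplast aldolase (ZS11g0066900) stood at 3.83, 0.0374 and 207 FPKM in the dark libraries and at 0.221, 80.3 and 9.54 FPKM in the light libraries. Sedoheptulose-1,7-bisphosphatase (ZS04g0233900), an enzyme of the Calvin cycle, stood at 0.15, 0 and 57.8 FPKM in the dark libraries and at 0, 16.4 and 0.351 FPKM in the light libraries. In each case the 5-day dark library was the highest and the 60-min library the second highest. Glyceraldehyde-3-phosphate dehydrogenase was level in its A subunit (ZS04g0557100, 40.3 and 41.3 FPKM) and within 2-fold in its B subunit (ZS03g0036000, 29.96 and 21 FPKM). Chloroplast aldolase 3 (ZS01g0026800, 29.7 and 30.7 FPKM) lay within 2-fold, and a locus named for the Rubisco large subunit (ZS05g0437000, 13.3 and 2.8 FPKM), otherwise a plastid gene, was lower. A minor Rubisco small subunit locus (ZS02g0059700, 2.22 and 0.684 FPKM) lay below all dark libraries but was not called lower, with a difference of -0.94 after 1 FPKM is added.

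The direction for carbon fixation depended on the control. With the 3-day or the 1-day dark library in place of the 5-day library, the list median turned from -1.15 to 4.27 and 2.69; the photosystem list median moved from 1.00 to 3.73 and 3.58. The list sums were 105, 41.3 and 505 FPKM in the dark libraries and 53.2, 235 and 62.4 FPKM in the light libraries for carbon fixation and 16.1, 8.49 and 281 FPKM in the dark libraries and 8.44, 513 and 25.1 FPKM in the light libraries for photosystems. Of these lists, 6 of 8 and 9 of 13 loci stood at least 2-fold above the other 4 libraries in both the 5-day dark and the 60-min library. For antenna loci this held for 3 of 7. Of these lists, 4 carbon fixation and 3 photosystem loci are also green tissue markers, and the share of green tissue in each pool was not tested.

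**Figure D3:**
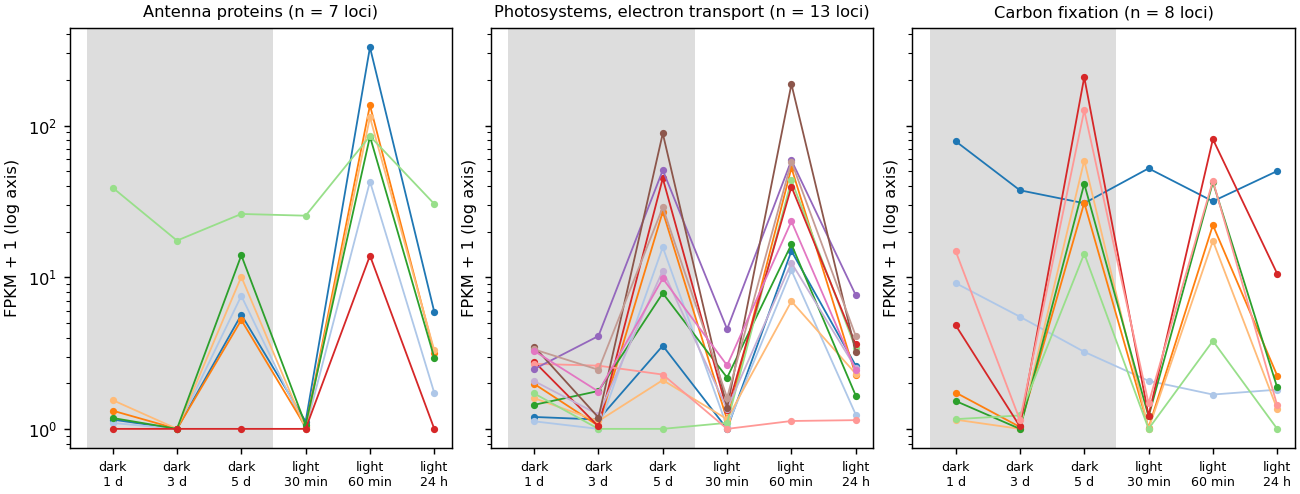
FPKM + 1 (log axis) of each measured antenna, photosystem and electron transport, and carbon fixation locus in the 6 libraries, 1 line per locus; dark libraries have a grey ground. All 7 antenna loci peak at 60 min, while 6 of the 8 carbon fixation loci stand apart in 2 libraries, 5-day dark and 60 min.

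Ribosomal protein loci of both compartments were higher more often than lower. Of plastid ribosomal protein loci, 10 of 35 measured were higher by 2-fold or more and 0 lower (median 0.55), and 17 of the 35 stood at least 2-fold above the other 4 libraries in both the 5-day dark and 60-min libraries. L13 (ZS05g0163300) stood at 95.7, 39.6 and 41.8 FPKM in the dark libraries and at 80.8, 115 and 79.5 FPKM in the light libraries. L35 (ZS06g0570500) stood at 1.66, 1.38 and 4.87 FPKM in the dark libraries and at 0.835, 15.1 and 1.19 FPKM in the light libraries. L13 had transcripts in all libraries, whereas L35 stood at 0.835 to 1.66 FPKM outside the 5-day dark and 60-min libraries. L3-2 (ZS01g0155900, 4.17 and 18.9 FPKM) and S6 (ZS01g0120600, 0.0899 and 25.4 FPKM) were also higher, S6 from a 5-day value near 0 that recurred at 24 h. Of cytosolic ribosomal protein loci, 38 of 96 measured were higher by 2-fold or more and 0 lower (median 0.93), but no more than 10 of them were above all dark libraries. Their summed level was 17820.3, 7357 and 8829.7 FPKM in the dark libraries and 13236, 16695 and 16804 FPKM in the light libraries. L6-3 (ZS02g0462700) stood at 267, 86.6 and 47.5 FPKM in the dark libraries and at 179, 226 and 186 FPKM in the light libraries. L21-2 (ZS10g0362500) stood at 230.4, 96.2 and 27.6 FPKM in the dark libraries and at 191, 214 and 198 FPKM in the light libraries. At both, the 5-day dark library was the lowest and the 1-day library close to the 60-min one. S3-2 (ZS03g0481300, 78.1 and 314 FPKM) was also higher, and L26-1 (ZS11g0051300, 0 and 71.8 FPKM) was listed at 0 in the 5-day dark library alone. Against the 1-day dark library the cytosolic list median was -0.11, and against the 3-day library 1.15.

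Photoreceptor transcripts lay mostly within 2-fold. Of photoreceptor loci, 2 of 15 measured were higher by 2-fold or more and 3 lower (median -0.18, or 0.28 and 0.39 with the 3-day and 1-day controls). Phytochrome A (ZS03g0651500), the receptor that gathers in darkness and acts in far-red light, stood at 103, 39.5 and 63.6 FPKM in the dark libraries and at 37.4, 23.2 and 43.9 FPKM in the light libraries, a difference of -1.42. Its 60-min value was the lowest of all 6 libraries. The phototropin 1 locus NPH1 (ZS11g0010000), a blue-light receptor for bending, stood at 24.3, 13 and 25.8 FPKM in the dark libraries and at 8.53, 5.39 and 11.3 FPKM in the light libraries, a difference of -2.07 and again the lowest of the 6. Its second locus (ZS12g0010100, 10.1 and 3.47 FPKM) was at -1.31 and inside the dark range. Phototropin 2 (ZS04g0337700, 18.3 and 10.2 FPKM) and cryptochrome 1 (ZS02g0441500, 8.69 and 4.25 FPKM), another blue-light receptor, lay within 2-fold, at -0.78 and -0.88. Phytochrome B (ZS03g0205300, 14.1 and 12.3 FPKM), phytochrome C (ZS03g0694400, 4.0 and 5.61 FPKM) and cryptochrome 2 (ZS02g0501600, 9.17 and 10.8 FPKM) differed by -0.18, 0.40 and 0.21. Cryptochrome DASH (ZS06g0584900), a photolyase relative, stood at 0.315, 0.542 and 1.77 FPKM in the dark libraries and at 2.1, 4.79 and 3.6 FPKM in the light libraries. Of 4 loci named for the ultraviolet-B receptor UVR8, ZS01g0700700 was higher (2.49 and 8.89 FPKM), and the others, ZS01g0583800, ZS01g0638700 and ZS11g0483400, differed by 0.42, -0.56 and 0.21.

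Downstream of the receptors, HY5 was higher and PIF1 lower. HY5 (ZS01g0075000), the bZIP factor that promotes light-dependent development, stood at 3.75, 2.05 and 2.26 FPKM in the dark libraries and at 8.57, 12.6 and 6.78 FPKM in the light libraries, a difference of 2.07. All 3 light libraries were above all 3 dark libraries. PIF1 (ZS04g0748700), a bHLH repressor of greening in darkness, stood at 7.54, 10.02 and 9.96 FPKM in the dark libraries and at 5.63, 1.43 and 2.2 FPKM in the light libraries, a difference of -2.17. All 3 light values were below all 3 dark values, with 60 min the lowest. COP1 (ZS02g0659100), which marks HY5 for degradation in darkness, stood at 5.25, 3.95 and 7.87 FPKM in the dark libraries and at 10.3, 16.6 and 13.5 FPKM in the light libraries, a difference of 0.99, just under the 2-fold limit. The PIF4 loci ZS07g0052200 (5.11 and 5.46 FPKM) and ZS12g0491200 (2.4 and 1.28 FPKM) differed by 0.08 and -0.58. SPA1-RELATED 4 (ZS01g0583900, 9.57 and 12.4 FPKM) and DET1 (ZS01g0014700, 7.37 and 8.74 FPKM), partners of COP1-type repression, differed by 0.35 and 0.22. A second HY5 locus (ZS06g0525100) did not reach 1 FPKM. None of the 6 COP9 signalosome subunits passed 2-fold (median 0.27), and FAR1-related loci had 1 higher and 2 lower of 18 (median -0.08, or 0.39 and 0.34 with the 3-day and 1-day controls).

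B-box factors, zinc finger proteins that act with HY5 and COP1, had 1 higher and 5 lower of 15 (median -0.48, or 0.17 and 0.13 with the 3-day and 1-day controls). B-box protein 22 (ZS05g0122400) stood at 5.99, 11.4 and 16.9 FPKM in the dark libraries and at 3.99, 4.74 and 1.18 FPKM in the light libraries. B-box protein 20 (ZS04g0650700) stood at 12.3, 4.36 and 10.2 FPKM in the dark libraries and at 9.59, 3.08 and 5.3 FPKM in the light libraries. CONSTANS-LIKE 3 (ZS08g0196900) stood at 0.030, 0.814 and 1.4 FPKM in the dark libraries and at 10.1, 6.28 and 4.19 FPKM in the light libraries. The first pair lay below all dark libraries at 60 min, and CONSTANS-LIKE 3 above them. A further B-box 22 locus (ZS01g0107100, 8.77 and 1.54 FPKM) was lower and inside the dark range. Clock loci had 1 higher and 1 lower of 8 (median 0.25). PRR73 (ZS03g0176700), a repressor of clock genes, stood at 1.75, 0.202 and 0.399 FPKM in the dark libraries and at 4.03, 13.5 and 1.32 FPKM in the light libraries, a difference of 3.38, the largest of the list. PCL1-like (ZS05g0423900, 4.25 and 0 FPKM), the relative of an evening repressor, was listed at 0 at 60 min, but also at 3 days and 24 h. GIGANTEA (ZS01g0082000, 57.2 and 75.9 FPKM), PRR1 (ZS02g0496600, 15.8 and 17.3 FPKM), the pseudo-response regulator ZS03g0176800 (17.5 and 23.2 FPKM), ELF4-LIKE 4 (ZS08g0429000, 6.52 and 9.03 FPKM) and the blue-light F-box proteins adagio-like 1 (ZS06g0628400, 39.3 and 40.4 FPKM) and adagio-like 3 (ZS11g0484900, 10.7 and 5.78 FPKM) all lay within 2-fold.

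Gibberellin drives stem elongation. Of 3 measured synthesis loci in the list, gibberellin 20-oxidase 1 was lower, and ent-kaurene synthase 1 (ZS04g0742800;ZS04g0742850, -0.03) and ent-kaurene oxidase 2 (ZS06g0484500, -0.14) lay within 2-fold. Of 5 measured loci of the inactivating 2-beta-dioxygenases, 2 were higher and 3 were called neither higher nor lower. Gibberellin 20-oxidase 1 (ZS03g0824300), which makes precursors of the active hormone, stood at 0.532, 6.17 and 21.1 FPKM in the dark libraries and at 4.29, 2.31 and 22.7 FPKM in the light libraries, a difference of -2.74. Gibberellin 2-beta-dioxygenase (ZS01g0620700), which inactivates the hormone, stood at 1.56, 0.504 and 0.69 FPKM in the dark libraries and at 14.6, 7.73 and 3.69 FPKM in the light libraries at its highest locus, a difference of 2.37. The 5-day and 24-h values of the first were alike and high, and the second was higher in every light library than in any dark library. Gibberellin 2-beta-dioxygenase 8 (ZS04g0634900, 0 and 2.42 FPKM) was also higher, whereas 2-beta-dioxygenases 1 (ZS01g0112100, 0.963 and 1.08 FPKM) and 2 (ZS05g0063700, 1.71 and 1.89 FPKM) lay within 2-fold. The locus ZS05g0578000 (2.06 and 0.645 FPKM) had less at 60 min but was not called lower, because 1 FPKM is added to both values. The loci ZS01g0249000, ZS01g0733800 and ZS05g0432000, of the oxidase families, stayed under 1 FPKM in both libraries. Chitin-inducible gibberellin-responsive protein 2 (ZS07g0481900), a GRAS regulator, stood at 3.32, 24.5 and 22.2 FPKM in the dark libraries and at 35.2, 0.146 and 3.92 FPKM in the light libraries. The response marker GAST1 (ZS05g0390200) stood at 3.22, 0 and 0.66 FPKM in the dark libraries and at 0.24, 12.3 and 0.635 FPKM in the light libraries. The GRAS locus was lowest and GAST1 highest at 60 min. The whole list had 6 higher and 2 lower of 13 (median 0.09).

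Of the strigolactone and karrikin loci, which restrain mesocotyl growth in rice, 4 were measured. D14L (ZS11g0268600), the karrikin-type receptor, stood at 43.8, 68.9 and 82.4 FPKM in the dark libraries and at 21.9, 37.2 and 67.1 FPKM in the light libraries. Cytochrome P450 711A1 (ZS06g0479700), a late enzyme of strigolactone synthesis, stood at 1.54, 9.4 and 11.7 FPKM in the dark libraries and at 5.77, 1.32 and 7.15 FPKM in the light libraries. D27 (ZS08g0020500), the plastid isomerase at its start, stood at 0.102, 0 and 3.07 FPKM in the dark libraries and at 0, 12.3 and 0 FPKM in the light libraries. The first pair lay below all dark libraries at 60 min and D27 above them. The esterase KAI2 (ZS01g0458400, 3.72 and 2.18 FPKM) differed by -0.57. Of 4 brassinosteroid loci, the receptor-like BRI1-like 3 (ZS09g0147100, 6.05 and 2.52 FPKM) was lower. The synthesis enzymes P450 85A1 (ZS03g0517400, 6.93 and 11 FPKM) and delta(24)-sterol reductase (ZS10g0307700, 93.7 and 142 FPKM) lay within 2-fold. The bHLH factor ILI1 (ZS04g0769300, 0.364 and 1.08 FPKM) had more at 60 min but was not called higher, because 1 FPKM is added to both low values.

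Auxin and cytokinin loci were mixed. Auxin response loci had 7 higher and 6 lower of 39 (median 0.38) and auxin transport and synthesis loci 2 higher and 2 lower of 12 (median -0.12, or 0.46 and 0.13 with the 3-day and 1-day controls). IAA14 (ZS03g0740400), an auxin repressor, stood at 40.6, 1.76 and 1.85 FPKM in the dark libraries and at 1.41, 26.8 and 0.993 FPKM in the light libraries. The efflux carrier 1b (ZS11g0039500) stood at 5.12, 0.418 and 0.183 FPKM in the dark libraries and at 1.73, 5.58 and 3.54 FPKM in the light libraries. In both, 1 day and 60 min were the highest libraries. Few members were jointly high at 1 day and 60 min by the 2-fold rule: 2 of the 39 response loci and 1 of the 12 transport and synthesis loci. Auxin response factor 11 (ZS04g0788300, 0.243 and 6.72 FPKM) and auxin-induced protein 15A-like (ZS06g0047000, 0.286 and 6.94 FPKM) were higher, the efflux carrier 6 (ZS01g0763100, 7.34 and 2.69 FPKM) and SAUR71 (ZS02g0073000, 8.7 and 0 FPKM) lower. Cytokinin loci had 2 higher and 6 lower of 22 (median -0.39, or -0.09 and 0.51 with the 3-day and 1-day controls). Cytokinin dehydrogenase 5 (ZS01g0636900), which degrades the hormone, stood at 0.37, 0.206 and 0.708 FPKM in the dark libraries and at 10.5, 5.57 and 1.8 FPKM in the light libraries. The 2 libraries with the shortest light were the highest there. Cytokinin dehydrogenase 11 (ZS08g0539300, 15.1 and 3.69 FPKM), the response regulator ARR8 (ZS11g0044100, 13.5 and 2.98 FPKM) and the activating enzyme ZS04g0632000 (5.32 and 0.546 FPKM) were lower.

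Abscisic acid loci, mostly protein phosphatases 2C, a family that includes repressors of the response, had 8 higher and 3 lower of 51 (median 0.23). Phosphatase 73 (ZS11g0017600) stood at 2.74, 0.0857 and 0.107 FPKM in the dark libraries and at 0.23, 10.6 and 0.231 FPKM in the light libraries. Phosphatase 33 (ZS03g0190600, 1.9 and 11.5 FPKM) and phosphatase 66 (ZS08g0583400, 7.23 and 22.7 FPKM) were higher too. A phosphatase 2C locus of no number (ZS03g0087300, 23.3 and 6.74 FPKM) was lower and below all dark libraries. Ethylene synthesis and receptor loci had 1 higher and 0 lower of 12 (median -0.40). The 1 higher locus was aminocyclopropane-carboxylate oxidase, the last enzyme of ethylene synthesis. The locus (ZS05g0056600) stood at 0.0441, 0.355 and 2.29 FPKM in the dark libraries and at 30.8, 10.5 and 4.72 FPKM in the light libraries. The 30-min value was the highest and 60 min the second highest. The receptor ERS1 (ZS03g0634300, 38.1 and 19.5 FPKM) differed by -0.93. Ethylene response factors had 7 higher and 6 lower of 25 (median 0.06).

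Jasmonate repressors of the TIFY (JAZ) family were higher more often than lower. Of these, 6 of 10 measured loci were higher, all of them above every dark library, none was lower, and the median was 1.08 (1.42 and 0.96 against the 3-day and 1-day dark libraries). TIFY 10c (ZS09g0306500) stood at 10.01, 5.12 and 13.2 FPKM in the dark libraries and at 90.2, 61.5 and 18.6 FPKM in the light libraries, a difference of 2.14. TIFY 11c (ZS03g0077200) stood at 5.77, 10.6 and 11.2 FPKM in the dark libraries and at 139, 47.4 and 35.6 FPKM in the light libraries, a difference of 1.99. TIFY 10b (ZS07g0522700), with the highest level, stood at 81.5, 66.6 and 115 FPKM in the dark libraries and at 408, 260.2 and 171 FPKM in the light libraries. At all 3, the value at 60 min lay between that at 30 min and that at 24 h. TIFY 9 (ZS04g0484700) stood at 0.128, 0.49 and 0.322 FPKM in the dark libraries and at 21.3, 4.02 and 1.55 FPKM in the light libraries. TIFY 3 (ZS04g0778900, 62 and 133 FPKM) and TIFY 6b (ZS09g0266000, 33.4 and 71.7 FPKM) were just past the limit, at 1.09 and 1.08. TIFY 11a (ZS03g0077100) stood at 12.1, 1.95 and 3.71 FPKM in the dark libraries and at 50.6, 5.59 and 8.93 FPKM in the light libraries. TIFY 11e (ZS10g0303300) stood at 5.39, 1.61 and 4.13 FPKM in the dark libraries and at 19.97, 3.98 and 11 FPKM in the light libraries. Both were high at 30 min and near the 5-day dark level at 60 min. TIFY 6a (ZS08g0486200, 39.7 and 47.5 FPKM) and TIFY 11b (ZS03g0077250, 32.3 and 39.6 FPKM) lay within 2-fold, and the 11b locus was listed at 0 at 30 min. TIFY 9-like (ZS01g0774200) and TIFY 11g (ZS03g0315500) stayed under 1 FPKM in both libraries. In no TIFY locus was the 60-min library the highest of the 6.

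The jasmonate synthesis list, which takes in lipoxygenases and oxophytodienoate reductases by product name, had 5 higher and 2 lower of 16 (median 0.66). Whether each member acts in that pathway was not checked. The median was 0.37 with a pseudocount of 5 FPKM. 12-Oxophytodienoate reductase 1 (ZS06g0138600) stood at 5.34, 6.49 and 3.6 FPKM in the dark libraries and at 67.8, 31.4 and 17.1 FPKM in the light libraries. Allene oxide synthase 1 (ZS03g0714600), the first committed enzyme, was listed at 23.5, 4.13 and 0 FPKM in the dark libraries and at 48.8, 17.8 and 10.1 FPKM in the light libraries. Linoleate 9S-lipoxygenase 4 (ZS03g0633300) stood at 22.3, 9.42 and 8.29 FPKM in the dark libraries and at 28.5, 19.4 and 19.9 FPKM in the light libraries. The 30-min library was the highest in all 3, and allene oxide synthase 1 and lipoxygenase 4 were under their 1-day dark value at 60 min. Jasmonate O-methyltransferase (ZS06g0268600, 15.9 and 4.09 FPKM) was lower.

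**Figure D4:**
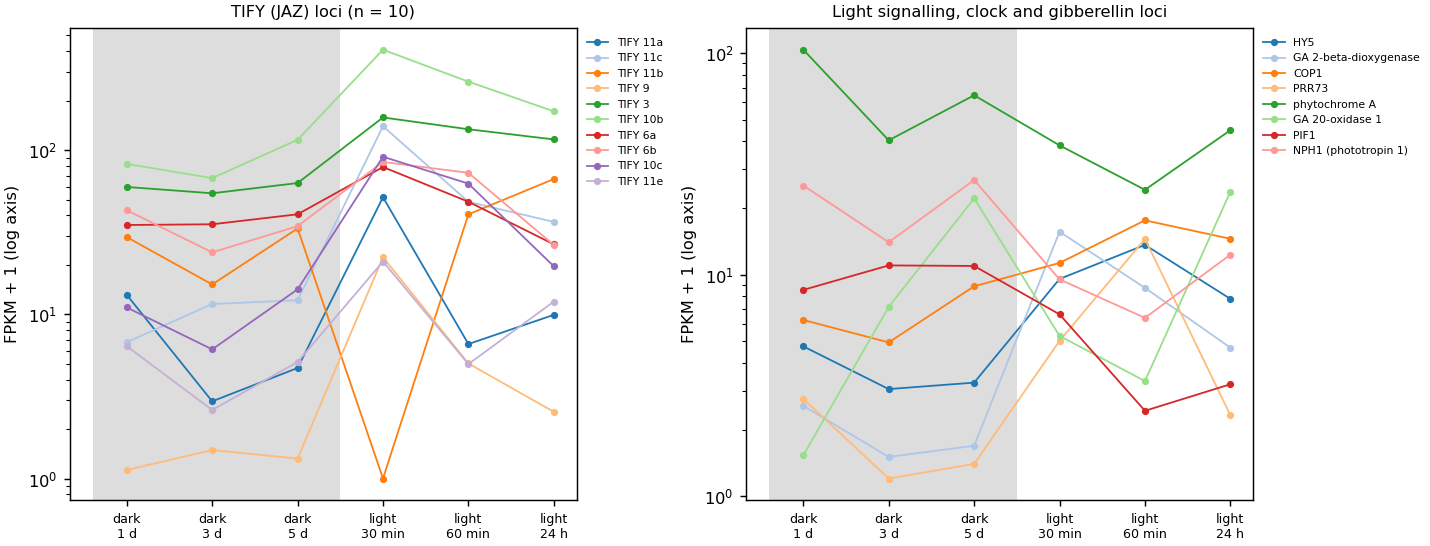
FPKM + 1 (log axis) in the 6 libraries, 1 line per locus, for the 10 measured TIFY loci (left) and for 8 loci of light signalling, clock and gibberellin (right); dark libraries have a grey ground. Most TIFY loci peak at 30 min, whereas HY5, COP1 and PRR73 are highest and PIF1, phytochrome A and NPH1 lowest at 60 min.

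Of 107 measured wall loci in 5 lists, 50 were higher and 8 lower at 60 min. Of these loci, 29 were higher and above all dark libraries, and 17 stood at least 2-fold above the other 4 libraries in both the 1-day dark and the 60-min library. Of xyloglucan endotransglucosylase loci, whose enzymes cut and rejoin wall xyloglucan, 5 of 9 measured were higher by 2-fold or more and 1 lower (median 1.85). The locus ZS10g0031200 stood at 18.4, 0.912 and 1.86 FPKM in the dark libraries and at 3.5, 52.6 and 3.96 FPKM in the light libraries. The most abundant, ZS06g0631400, stood at 336, 18.9 and 21.2 FPKM in the dark libraries and at 16.9, 86.6 and 12.5 FPKM in the light libraries. In these, 1 day and 60 min were the 2 highest libraries, and 4 of the 9 loci stood at least 2-fold above the other 4 in both. The single lower locus, ZS04g0735100, stood at 13.5 and 2.98 FPKM and was chosen after its values were seen. Against the 1-day dark library the list median turned from 1.85 to -0.90, and against the 5-day library it was 0.66 with a pseudocount of 5 FPKM and 0.13 with no filter on low values. Of arabinogalactan protein loci, cell surface glycoproteins, 9 of 12 measured were higher by 2-fold or more and 1 lower (median 1.38), with 2 above all dark libraries, and the median against the 1-day library was -0.99. Fasciclin-like protein 13 (ZS05g0580400) stood at 41.2 FPKM at 5 days and 142 FPKM at 60 min, and a second locus of that name, ZS02g0230500, at 1.54 and 30.9 FPKM. Fasciclin-like protein 11 (ZS01g0537000, 16.1 and 72.5 FPKM) and classical arabinogalactan protein 26 (ZS01g0785100, 2.16 and 32.4 FPKM) were also higher and below their 1-day values.

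Pectin enzymes had 18 higher and 3 lower of 44 (median 0.84, or 1.04 and 0.20 with the 3-day and 1-day controls), with 7 jointly high at 1 day and 60 min. Their median was 0.40 with a pseudocount of 5 FPKM and 0.52 with no filter on low values. Pectinesterase 68 (ZS04g0661100), which removes methyl groups from pectin, stood at 18, 0.446 and 3.07 FPKM in the dark libraries and at 4.39, 130.1 and 5.76 FPKM in the light libraries, a difference of 5.01. Galacturonosyltransferase-like 9 (ZS02g0626700) was listed at 71.3, 0 and 0 FPKM in the dark libraries and at 0, 54.2 and 0 FPKM in the light libraries. Pectinesterase (ZS01g0232200) stood at 23.9, 0.032 and 0.496 FPKM in the dark libraries and at 0.403, 22.7 and 1.5 FPKM in the light libraries. Pectinesterase 68 exceeded every dark library, whereas the other 2 loci were higher still in the 1-day dark library. The polygalacturonase At1g48100 (ZS01g0504200;ZS01g0505600, 0.58 and 19.1 FPKM) was higher too. Of the cellulose synthase and endoglucanase loci, 8 of 17 measured were higher by 2-fold or more and 0 lower (median 0.80), and the median was 1.22 with a pseudocount of 0.1 FPKM and 0.48 with no filter on low values. In this list 2 loci are also vascular markers. The primary wall subunit CESA1 (ZS05g0090500) stood at 274, 93.8 and 68.9 FPKM in the dark libraries and at 122, 202 and 101 FPKM in the light libraries. CESA6 (ZS07g0191200) stood at 169, 28.4 and 18.4 FPKM in the dark libraries and at 92.8, 112 and 79 FPKM in the light libraries. Both were lowest at 5 days of darkness and highest at 1 day. Endoglucanase 6 (ZS02g0621400, 1.08 and 16.2 FPKM) and cellulose synthase-like E6 (ZS09g0342600, 1.43 and 5.78 FPKM) were above all dark libraries. Expansins, which loosen walls without cutting them, had 10 higher and 3 lower of 25 (median 0.36). Expansin-A7 (ZS03g0768400) stood at 18.5, 3.48 and 7.33 FPKM in the dark libraries and at 12.2, 53.6 and 2.12 FPKM in the light libraries. Its 60-min value was the highest of the 6. Expansin-B16 (ZS02g0521000, 0.403 and 5.1 FPKM), expansin-like A4 (ZS06g0664200, 0.975 and 7.67 FPKM) and the expansin locus ZS05g0492000 (4.25 and 18.8 FPKM) were also higher, and the last was below its 1-day value.

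Phenylpropanoid and wall-stiffening loci were divided. Phenylalanine ammonia-lyase (ZS02g0502200), the entry enzyme of lignin synthesis, stood at 167, 840.2 and 1367 FPKM in the dark libraries and at 639.8, 349.6 and 609 FPKM in the light libraries, a difference of -1.96. The 5-day dark library was the highest. The lignin list as a whole had 9 higher and 1 lower of 29 (median 0.34), with hydroxycinnamoyltransferase (ZS08g0630300, 2.21 and 14.4 FPKM), caffeoylshikimate esterase (ZS01g0234200, 0.798 and 8.3 FPKM) and cinnamyl alcohol dehydrogenase 9 (ZS03g0113800;ZS03g0113900, 9.97 and 40.9 FPKM) higher. Laccases, which polymerise lignin, had 2 higher and 6 lower of 9 (median -1.15, or -0.67 and -0.10 with the 3-day and 1-day controls). Their median was -0.60 with a pseudocount of 5 FPKM and -0.64 with no filter on low values. Laccase-5 (ZS01g0698500) stood at 1.84, 1.39 and 11.9 FPKM in the dark libraries and at 11.4, 1.65 and 7.75 FPKM in the light libraries. Laccase-12/13 (ZS05g0469700) stood at 2.49, 0.23 and 0.412 FPKM in the dark libraries and at 0.806, 8.1 and 0.299 FPKM in the light libraries. Laccase-5 was under 2 FPKM at 1 and 3 days and at 60 min, and laccase-12/13 was highest at 1 day and 60 min. Laccase-3-like (ZS03g0187500, 7.05 and 1.2 FPKM) was lower and a second laccase-12/13 locus (ZS05g0469500, 0.253 and 5.35 FPKM) higher. Class III peroxidases had 16 higher and 4 lower of 43 (median 0.59), with 7 above all dark libraries and 7 jointly high at 1 day and 60 min. The peroxidase median was 0.29 with a pseudocount of 5 FPKM and 0.34 with no filter on low values. Peroxidase A2 (ZS10g0018800) stood at 34.2, 6.01 and 3.31 FPKM in the dark libraries and at 6.74, 32.9 and 3.06 FPKM in the light libraries. Dirigent protein 1 (ZS11g0580200), which guides the coupling of lignin precursors, stood at 36.6, 1.86 and 764 FPKM in the dark libraries and at 0.401, 503 and 0.689 FPKM in the light libraries. Dirigent protein 1 was high in the 5-day dark and 60-min libraries and under 2 FPKM at 3 days, 30 min and 24 h. The dirigent protein 5 loci ZS07g0541700, ZS07g0543600 and ZS07g0542900 stood at 8.09, 5.32 and 3.96 FPKM in the 5-day dark library and at 0, 0.334 and 6.58 FPKM at 60 min. The dirigent list had 0 higher and 2 lower of 4 (median -1.42), and its median against the 1-day dark library was 0.65. Against the 5-day library it was -0.78 with a pseudocount of 5 FPKM and -0.07 with no filter on low values, and -0.60 without the locus listed at 0.

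Cell division loci were higher as a group. Of cell cycle loci, 25 of 38 measured were higher by 2-fold or more and 0 lower (median 1.32), 23 of them above all dark libraries. Cyclin-D6-1 (ZS07g0457600), a G1 cyclin, stood at 4.49, 1.28 and 2.12 FPKM in the dark libraries and at 3.42, 21.7 and 3.31 FPKM in the light libraries, a difference of 2.86. The replication licensing factor MCM4 (ZS01g0405800) stood at 21, 6.72 and 5.91 FPKM in the dark libraries and at 14.4, 32 and 18.6 FPKM in the light libraries. MCM6 (ZS05g0156300) stood at 14.8, 4.06 and 5.55 FPKM in the dark libraries and at 11.3, 26.8 and 15.8 FPKM in the light libraries. At all 3 the 60-min library was the highest of the 6. Cyclin-D3-2 (ZS09g0023900, 0.634 and 8.87 FPKM) was higher too. The list shares 10 loci with the marker list of dividing cells, and that list holds all 19 histone loci below as well. Of histone loci, 12 of 19 measured were higher by 2-fold or more and 1 lower (median 1.36), and 12 of them were above all dark libraries. The histone H2A locus ZS05g0020200 stood at 57.4, 14.5 and 28.2 FPKM in the dark libraries and at 57.1, 253 and 75.5 FPKM in the light libraries. H2A.5 (ZS01g0355800) stood at 37.8, 24.2 and 44.7 FPKM in the dark libraries and at 32.6, 264 and 60.5 FPKM in the light libraries. H2A variant 2 (ZS10g0325000) stood at 26.3, 6.19 and 8.98 FPKM in the dark libraries and at 21.4, 77.4 and 26.9 FPKM in the light libraries. The 60-min library was the highest in these 3. The 1 lower histone locus, the centromeric CSE4 (ZS04g0502500, 14.7 and 0 FPKM), was listed at 0 at 60 min alone, where every other library held 7.35 FPKM or more.

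Kinesins and microtubule-binding proteins had 25 higher and 2 lower of 44 (median 1.21) and tubulins and actins 11 higher and 2 lower of 18 (median 1.12). The kinesin median was 0.77 with a pseudocount of 5 FPKM. The kinesin-like locus ZS03g0719000 stood at 12.7, 7.91 and 5.22 FPKM in the dark libraries and at 7.06, 30.8 and 8.92 FPKM in the light libraries. The 65-kDa microtubule-associated protein 6 (ZS09g0316800), which bundles microtubules, stood at 16.9, 90.3 and 66.9 FPKM in the dark libraries and at 42.4, 16.5 and 49 FPKM in the light libraries. The first was highest and the second lowest at 60 min. The kinesin NACK2 (ZS09g0387100, 0.246 and 16.1 FPKM) and the kinesin-related locus ZS03g0173600 (2.92 and 14.9 FPKM) were also higher. Tubulin beta-5 (ZS02g0072500) stood at 209.6, 93.4 and 79.4 FPKM in the dark libraries and at 104, 254 and 126 FPKM in the light libraries. Actin-7 (ZS01g0717800) stood at 120.2, 305 and 398 FPKM in the dark libraries and at 385, 151 and 208 FPKM in the light libraries. Actin-1 (ZS03g0650200) stood at 434, 120.1 and 90.1 FPKM in the dark libraries and at 176, 234 and 188 FPKM in the light libraries. Actin-7 was low where actin-1 was high, at 1 day and 60 min. Against the 3-day and 1-day dark libraries, medians were 1.60 and 0.26 for cell cycle loci, 1.83 and 1.09 for histones, 1.51 and 0.23 for kinesins and 0.43 and -0.55 for tubulins and actins.

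Surface loci were higher more often than lower. Of wax and cuticle loci, 26 of 44 measured were higher by 2-fold or more and 2 lower (median 1.24); 20 were above all dark libraries and 11 jointly high at 1 day and 60 min. Against the 3-day and 1-day dark libraries the list medians were 1.02 and 0.81, and against the 5-day library the median was 0.59 with a pseudocount of 5 FPKM and 0.66 with no filter on low values. In the list, 12 loci are also shoot surface markers. ECERIFERUM 1 (ZS02g0498800), which makes wax alkanes, stood at 22.4, 0 and 0.0615 FPKM in the dark libraries and at 0, 49.6 and 0.148 FPKM in the light libraries. Long chain acyl-CoA synthetase 1 (ZS05g0042700), which activates wax precursors, stood at 10.7, 0.219 and 2.7 FPKM in the dark libraries and at 0.72, 59.96 and 2.64 FPKM in the light libraries. The cutin exporter ABCG31 (ZS01g0078100) stood at 23.7, 0.898 and 0.66 FPKM in the dark libraries and at 0.29, 25.7 and 1.52 FPKM in the light libraries. Outside 1 day and 60 min, none of these reached 3 FPKM. Long chain acyl-CoA synthetase 2 (ZS11g0492100, 0.0162 and 15 FPKM) was likewise higher. Protodermal factor 1 (ZS01g0106400), an epidermal protein, was listed at 17.1, 0 and 0 FPKM in the dark libraries and at 0, 65.3 and 0 FPKM in the light libraries. ROC3 (ZS10g0474000), an epidermal homeobox factor, stood at 6.46, 0.0656 and 0.0108 FPKM in the dark libraries and at 0.0876, 14.7 and 0.0806 FPKM in the light libraries. Its relative ROC8 (ZS06g0122400;ZS06g0122300, 0.0303 and 8.26 FPKM) was also higher, and YABBY 5 (ZS04g0646600), a factor of young leaves, stood at 9.0, 0 and 0.0638 FPKM in the dark libraries and at 0.213, 13.1 and 0.0327 FPKM in the light libraries.

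Lipid-transfer proteins had 8 higher and 5 lower of 26 (median 0.46), 3 of them shoot surface markers, with differences from -4.56 to 7.90. Lipid-transfer protein 1 (ZS01g0679800) stood at 332, 0 and 0.805 FPKM in the dark libraries and at 0.336, 430.5 and 0.567 FPKM in the light libraries. The protein 3 locus ZS12g0022500 stood at 186, 5.46 and 5.23 FPKM in the dark libraries and at 11.1, 297 and 19 FPKM in the light libraries. The other protein 3 locus, ZS11g0022800, stood at 190.3, 6.45 and 8.19 FPKM in the dark libraries and at 11.8, 257 and 15.7 FPKM in the light libraries. All 3 were high at 1 day and higher still at 60 min; the pair of protein 3 loci may share reads, so their separate values are uncertain. Another locus named lipid-transfer protein 1 (ZS12g0022700) stood at 0.267, 0.304 and 23 FPKM in the dark libraries and at 13.2, 0.0196 and 2.59 FPKM in the light libraries, and was the lowest at 60 min. Lipid-transfer protein 2 (ZS05g0568900) was listed at 0, 7.41 and 0 FPKM in the dark libraries and at 5.15, 70.8 and 457 FPKM in the light libraries, with its peak at 24 h.

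Transcription factor families held both higher and lower members. MYB loci had 6 higher and 9 lower of 39 (median -0.26, or 0.18 and 0.85 with the 3-day and 1-day controls). MYB59 (ZS01g0815200) stood at 1.04, 111 and 223 FPKM in the dark libraries and at 128, 8.41 and 141 FPKM in the light libraries, a difference of -4.58. MYB44 (ZS06g0563500) was listed at 38.6, 28.5 and 37.4 FPKM in the dark libraries and at 0, 0 and 24.2 FPKM in the light libraries. The first was low at 1 day and 60 min, and the second was listed at 0 at 30 and 60 min. The MYB-related loci P (ZS01g0220500, 2.52 and 13.1 FPKM) and Zm38 (ZS02g0446900, 0 and 8.17 FPKM) were higher. NAC loci had 4 higher and 7 lower of 32 (median -0.32, or 0.23 and 1.20 with the 3-day and 1-day controls). NAC21/22 (ZS08g0123100) stood at 1.96, 7.06 and 25.6 FPKM in the dark libraries and at 9.03, 1.18 and 4.26 FPKM in the light libraries, the lowest of the 6 at 60 min. NAM-B2 (ZS01g0253900, 5.47 and 1.6 FPKM) and CUP-SHAPED COTYLEDON 1 (ZS02g0702000, 5.82 and 1.93 FPKM) were lower and NAC43 (ZS08g0021300, 2.2 and 6.07 FPKM) higher. WRKY loci had 8 higher and 5 lower of 35 (median 0.07). WRKY29 (ZS12g0024000) stood at 1.02, 1.78 and 1.91 FPKM in the dark libraries and at 28.4, 7.48 and 8.55 FPKM in the light libraries. WRKY35 (ZS03g0215000) stood at 23.2, 23.7 and 15.6 FPKM in the dark libraries and at 70.7, 38.7 and 35 FPKM in the light libraries. Both were highest at 30 min. WRKY57 (ZS03g0707600, 9.61 and 3.54 FPKM) and WRKY2 (ZS09g0345700, 19.3 and 6.24 FPKM) were lower.

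The bHLH loci had 6 higher and 4 lower of 32 (median 0.16). The locus bHLH148 (ZS03g0207600) stood at 17.8, 1.83 and 2.18 FPKM in the dark libraries and at 7.71, 37.6 and 6.43 FPKM in the light libraries. The locus bHLH137 (ZS08g0624500) stood at 34, 0 and 0.312 FPKM in the dark libraries and at 0.548, 17.5 and 0.779 FPKM in the light libraries. Again 1 day and 60 min were the 2 highest libraries. The locus bHLH93 (ZS06g0663700, 3.5 and 19.6 FPKM) was higher and bHLH107 (ZS01g0064600, 13.6 and 3.52 FPKM) lower. Homeobox loci, of which 5 are shoot surface and 9 meristem and young leaf markers, had 11 higher and 4 lower of 47 (median 0.06), with HOX21 (ZS03g0070200, 2.62 and 23.8 FPKM) higher and the even-skipped homolog 2 locus (ZS01g0076200, 28 and 4.74 FPKM) lower. Knotted-1-like 1 (ZS01g0217500), a meristem factor, stood at 21.6, 30.6 and 28.7 FPKM in the dark libraries and at 28.7, 5.22 and 11.9 FPKM in the light libraries. Its 60-min value was the lowest of the 6. Knotted-1-like 3 (ZS03g0030200, 4.83 and 16.1 FPKM) and YABBY 6 (ZS12g0500700, 4.54 and 14.4 FPKM) were higher. Zinc finger loci, B-box loci included, had 2 higher and 6 lower of 22 (median -0.29, or -0.26 and 0.30 with the 3-day and 1-day controls), among them ZAT12 (ZS03g0766900, 6.08 and 0 FPKM), listed at 0 at 60 min alone. Among ethylene response factors, ERF073 (ZS03g0078400, 153 and 44.6 FPKM), the dehydration-responsive factor 1E (ZS04g0677600, 10.5 and 0.217 FPKM) and factor 12 (ZS05g0513900, 10.6 and 0 FPKM) were lower, and TINY (ZS02g0541200, 1.36 and 7.82 FPKM) was higher.

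Metallothionein loci were all lower, and heat shock loci were lower more often than higher. The 4 metallothionein loci, for small metal-binding proteins, had a median of -1.48, against -0.92 and 3.64 with the 3-day and 1-day dark libraries as control. Metallothionein 3B (ZS05g0121200) stood at 1.03, 435 and 1941 FPKM in the dark libraries and at 1222, 489.9 and 692 FPKM in the light libraries. Metallothionein 4C (ZS12g0448700) stood at 19.3, 2566 and 1876 FPKM in the dark libraries and at 2909.6, 636 and 901 FPKM in the light libraries. Metallothionein 4A (ZS12g0448300) stood at 116, 835 and 262 FPKM in the dark libraries and at 759.8, 98.5 and 583 FPKM in the light libraries. The 3B and 4C loci were lowest at 1 day, and 4A was lowest at 60 min. A further metallothionein-like locus, ZS05g0018000, stood at 2209 and 934 FPKM. Heat shock loci had 3 higher and 12 lower of 32 (median -0.64), with 8 below all dark libraries (-0.32 and 0.21 against the 3-day and 1-day libraries, and -0.39 with a pseudocount of 5 FPKM and -0.28 with no filter on low values). The 18.9 kDa heat shock protein (ZS02g0035000) stood at 0.882, 26.1 and 52.3 FPKM in the dark libraries and at 20.7, 6.77 and 20.2 FPKM in the light libraries. Heat shock cognate 70 kDa protein 2 (ZS03g0767500), a chaperone, stood at 54.3, 42.2 and 34.4 FPKM in the dark libraries and at 67.5, 2.05 and 90.6 FPKM in the light libraries. A heat shock factor (ZS09g0386300, 13.5 and 1.54 FPKM) was lower. The 17.9 kDa class I protein (ZS03g0161600) was listed at 0, 30.2 and 0 FPKM in the dark libraries and at 0, 12.7 and 0 FPKM in the light libraries, so 4 libraries were at 0.

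Stress and defence lists were mixed. Late embryogenesis abundant loci had 4 higher and 1 lower of 11 (median 0.16). Lea5-D (ZS01g0233800) stood at 2.13, 2.5 and 9.25 FPKM in the dark libraries and at 215, 92.5 and 54.5 FPKM in the light libraries. The group 3 locus (ZS01g0565700) stood at 0.581, 0.336 and 0.596 FPKM in the dark libraries and at 8.33, 10.5 and 69.6 FPKM in the light libraries. Both were above every dark library at 60 min, with the first highest at 30 min and the second at 24 h. Lea14-A (ZS05g0599400, 12.7 and 5.65 FPKM) was lower. Defence loci had 18 higher and 10 lower of 65 (median 0.17). Osmotin-like protein (ZS01g0695100) stood at 30.8, 2.56 and 2.97 FPKM in the dark libraries and at 13.3, 86.5 and 23.2 FPKM in the light libraries. Pathogenesis-related protein 1 (ZS05g0609900) stood at 18.4, 13.7 and 39.3 FPKM in the dark libraries and at 23.8, 0.167 and 17.4 FPKM in the light libraries. The first was highest and the second lowest at 60 min. The locus PR1c (ZS01g0319800, 30.4 and 1.69 FPKM) was lower and glucan endo-1,3-beta-glucosidase 13 (ZS01g0604900, 2.04 and 29.6 FPKM) higher. Glutathione transferases had 5 higher and 3 lower of 20 (median -0.12, or 0.10 and 0.43 with the 3-day and 1-day controls). The APIC form (ZS10g0437900) stood at 11.2, 1.23 and 0.502 FPKM in the dark libraries and at 3.13, 34.1 and 9.62 FPKM in the light libraries. The F11 form (ZS03g0040300) stood at 35.1, 7.81 and 7.44 FPKM in the dark libraries and at 14.6, 96 and 32.4 FPKM in the light libraries. These 2 and transferase 3 (ZS01g0781300, 2.14 and 12.6 FPKM) were highest at 60 min, and the zeta class locus (ZS02g0432800, 35.7 and 12.2 FPKM) was lower. Antioxidant loci had 7 higher and 12 lower of 60 (median -0.02, or 0.30 and 0.40 with the 3-day and 1-day controls), with thioredoxin M1 (ZS02g0521600, 2.85 and 21.6 FPKM) higher, glutaredoxin-C1 (ZS01g0309600, 21.3 and 1.2 FPKM) lower, and peroxiredoxin-2E-1 (ZS06g0544200, 29.1 and 0 FPKM) and glutaredoxin-S5 (ZS01g0536800, 27 and 0 FPKM) listed at 0 at 60 min.

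In carbohydrate metabolism, starch and sucrose loci had 10 higher and 1 lower of 33 (median 0.45). The large subunit of glucose-1-phosphate adenylyltransferase (ZS05g0596100), the committing enzyme of starch synthesis, stood at 52.5, 1.29 and 2.04 FPKM in the dark libraries and at 2.63, 37.5 and 13.1 FPKM in the light libraries. Its small subunit (ZS08g0378500) stood at 29.9, 3.87 and 9.58 FPKM in the dark libraries and at 4.44, 67.6 and 5.36 FPKM in the light libraries. Plastidial starch phosphorylase 1 (ZS03g0707700) stood at 22.7, 1.64 and 1.81 FPKM in the dark libraries and at 3.44, 29.7 and 4.36 FPKM in the light libraries. All 3 were highest at 1 day or 60 min. Cytosolic invertase 1 (ZS02g0421900, 10.1 and 48.4 FPKM) was higher, alpha-amylase 2A (ZS06g0647300, 5.37 and 1.12 FPKM) lower and alpha-amylase 2 (ZS04g0489400, 29.98 and 14.6 FPKM) within 2-fold. Trehalose loci had 1 higher and 1 lower of 8 (median 0.16): phosphatase 9 (ZS03g0297000, 3.63 and 9.25 FPKM) was higher and the phosphatase family locus ZS05g0060300 (3.64 and 0.769 FPKM) lower. The synthases ZS01g0587600, ZS01g0613000, ZS02g0676200 and ZS09g0262400 and phosphatases 1 (ZS02g0544300) and 3 (ZS07g0531000) lay within 2-fold. Flavonoid loci had 9 higher and 3 lower of 25 (median -0.13, or -0.11 and 0.03 with the 3-day and 1-day controls). Flavonol synthase (ZS01g0688800) stood at 0, 0.0363 and 0.131 FPKM in the dark libraries and at 4.08, 6.54 and 0.347 FPKM in the light libraries. Anthocyanidin reductase (ZS04g0760400) stood at 0.0299, 9.13 and 26.5 FPKM in the dark libraries and at 17.2, 3.26 and 17.8 FPKM in the light libraries. The 30- and 60-min libraries were the highest for the first and the 5-day dark library for the second. A second reductase locus (ZS07g0493900, 0.584 and 9.29 FPKM) and the dehydratase ZS06g0138100 (0 and 7.35 FPKM) were higher. Other cytochrome P450 loci had 6 higher and 11 lower of 35 (median -0.39, or -0.34 and 0.28 with the 3-day and 1-day controls). P450 87A3-like (ZS03g0584600) stood at 0.0612, 0.0429 and 2.06 FPKM in the dark libraries and at 0.0213, 47.2 and 0.0091 FPKM in the light libraries. P450 78A6 (ZS03g0039800) stood at 3.68, 30.8 and 24.6 FPKM in the dark libraries and at 29.4, 2.06 and 12.8 FPKM in the light libraries. The first was highest at 60 min, and the second was lowest there. The loci 72A13 (ZS01g0496600, 24.6 and 3.45 FPKM) and 704C1 (ZS06g0041300, 41.8 and 7.99 FPKM) were lower.

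Water channels had 3 higher and 2 lower of 17 (median 0.29, or -0.15 and 0.28 with the 3-day and 1-day controls). PIP2-7 (ZS09g0398300), a plasma membrane channel, stood at 0, 0.057 and 64.9 FPKM in the dark libraries and at 0.0656, 0.268 and 0 FPKM in the light libraries. NIP1-1 (ZS02g0152300) stood at 16, 0 and 0.46 FPKM in the dark libraries and at 1.23, 25.6 and 1.3 FPKM in the light libraries. The first was above 1 FPKM at 5 days of darkness alone, and the second was highest at 1 day and 60 min. NIP3-1 (ZS10g0402600, 10.1 and 1.78 FPKM) was lower and TIP4-3 (ZS01g0131300, 1.62 and 6.4 FPKM) higher. Nutrient transport loci had 7 higher and 11 lower of 61 (median -0.13, or 0.19 and 0.79 with the 3-day and 1-day controls). The phosphate exporter PHO1-1 (ZS01g0019200, 6.33 and 0.294 FPKM), vacuolar iron transporter homolog 5 (ZS04g0810400, 10.9 and 1.04 FPKM) and zinc transporter 2 (ZS03g0341800, 12.4 and 2.42 FPKM) were lower, and the metal transporter Nramp5 (ZS07g0196700, 0.851 and 11.5 FPKM) higher. SWEET11 (ZS08g0623500), a sugar exporter, stood at 46.2, 13.3 and 3.14 FPKM in the dark libraries and at 0.938, 42.9 and 1.98 FPKM in the light libraries. SWEET11 was high at 1 day and 60 min, while SWEET3a (ZS05g0128700, 14.4 and 4.17 FPKM), xylem cysteine proteinase 2 (ZS02g0602800, 7.46 and 2.45 FPKM) and phloem protein A1 (ZS01g0062600, 23.9 and 5.04 FPKM) were lower.

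Calcium sensors and kinases had 7 higher and 6 lower of 65 (median -0.10, or 0.11 and 0.20 with the 3-day and 1-day controls). The protein kinase CIPK2 (ZS07g0577200) stood at 62.1, 84.3 and 1.93 FPKM in the dark libraries and at 111, 97.3 and 3.9 FPKM in the light libraries. The kinase was low at 5 days and 24 h and high in the other 4 libraries. CML7 (ZS08g0022300, 1.13 and 9.73 FPKM) was higher, and calmodulin-like protein 1 (ZS01g0669600, 59.6 and 10.9 FPKM) and calcium-transporting ATPase 4 (ZS12g0040900, 23.7 and 3.8 FPKM) lower. Receptor kinases had 45 higher and 21 lower of 189 (median 0.05, or 0.62 with a filter at 5 FPKM). HERK 1 (ZS06g0284600), a wall-sensing kinase, stood at 15.2, 3.34 and 0.0618 FPKM in the dark libraries and at 9.31, 23.4 and 9.73 FPKM in the light libraries. ERECTA (ZS06g0118200), a receptor of growth and epidermal patterning, stood at 56.5, 0.223 and 0.641 FPKM in the dark libraries and at 0.0821, 31.6 and 0.147 FPKM in the light libraries. HERK 1 exceeded every dark library and ERECTA was below its 1-day value. The inactive kinase loci ZS03g0213800 (1.19 and 26.8 FPKM) and ZS08g0588700 (0.947 and 19.2 FPKM) were also higher. F-box, U-box and other ubiquitin ligase loci, whose proteins choose targets for degradation, had 28 higher and 35 lower of 234 (median 0.00). AFR (ZS06g0577800), an F-box protein of phytochrome A signalling in Arabidopsis, was listed at 18.3, 20.4 and 26.4 FPKM in the dark libraries and at 0, 0 and 0 FPKM in the light libraries. RING1 (ZS05g0016600, 12 and 0 FPKM) and the XERICO loci ZS08g0568300 (18.8 and 0 FPKM) and ZS09g0342900 (22.7 and 0 FPKM) were also listed at 0 at 60 min. Proteasome subunits had 2 higher and 0 lower of 27 (median 0.46, or 0.41 and -0.40 with the 3-day and 1-day controls): the non-ATPase subunit ZS08g0636300 (6.84 and 31.2 FPKM) and alpha type-7-B (ZS09g0396000, 4.06 and 10.8 FPKM) were higher. Protease inhibitors had 4 higher and 3 lower of 15 (median -0.11, or 0.06 and 0.41 with the 3-day and 1-day controls). Inhibitor PSI-1.2 (ZS03g0674000) stood at 2.25, 3.27 and 9.74 FPKM in the dark libraries and at 15.3, 27.5 and 18 FPKM in the light libraries, highest at 60 min.

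**Figure D5:**
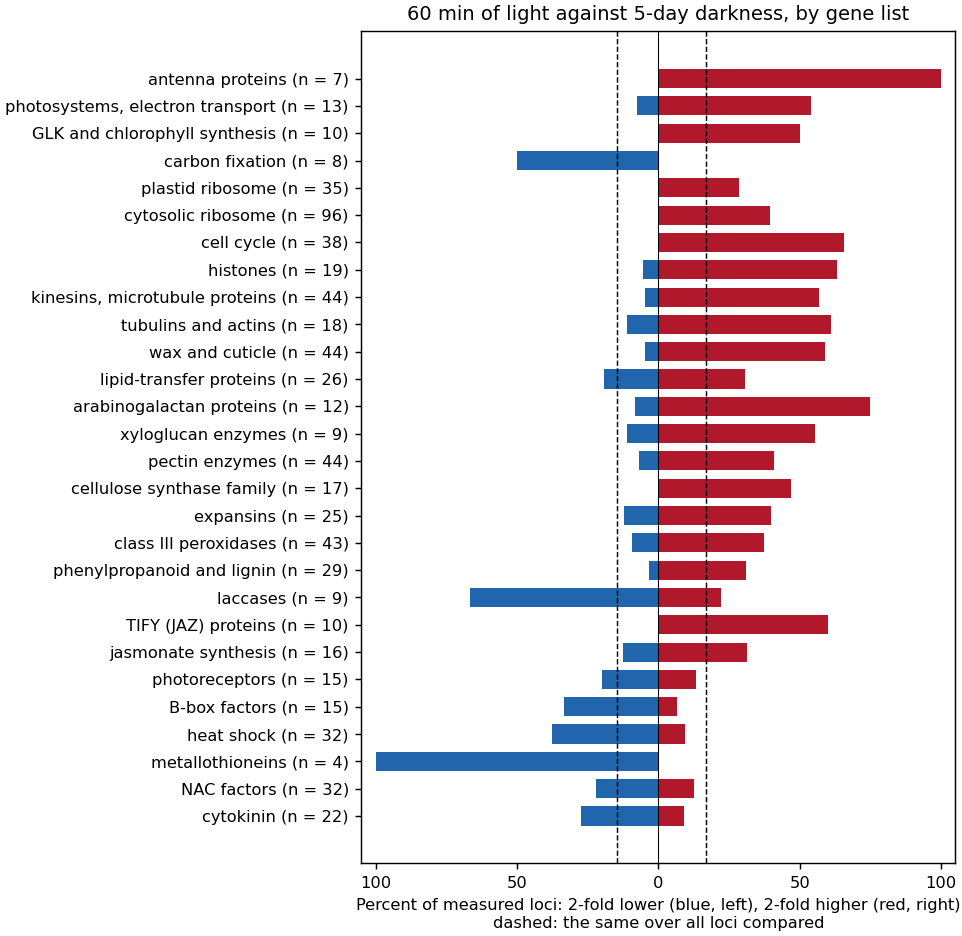
Percent of measured loci at least 2-fold higher (red, right) and at least 2-fold lower (blue, left) at 60 min than in the 5-day dark library, for 28 gene lists with their number of measured loci; dashed lines mark 16.8% and 14.5%, the shares over all loci compared. Antenna proteins stand at 7 of 7 higher and metallothioneins at 4 of 4 lower.

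Among loci with a product name and a value above 0 in all 6 libraries, the largest positive difference was that of glycine-rich protein 2. The locus (ZS08g0032800) stood at 84, 0.142 and 0.15 FPKM in the dark libraries and at 69.7, 172 and 0.302 FPKM in the light libraries, a difference of 7.23. Its values were near 0 in 3 libraries and abundant in the other 3. It was followed by lipid-transfer protein 3 (ZS12g0022500, 5.58), CBL-interacting protein kinase 2 (ZS07g0577200, 5.07), pectinesterase 68 (ZS04g0661100, 5.01) and the second lipid-transfer protein 3 locus (ZS11g0022800, 4.81). The esterase/lipase At5g45910 (ZS01g0116900) stood at 23.7, 0.456 and 0.105 FPKM in the dark libraries and at 0.543, 27.1 and 1.54 FPKM in the light libraries. Next came ribosomal protein S6 (ZS01g0120600), glutathione transferase APIC (ZS10g0437900), HERK 1 (ZS06g0284600) and osmotin-like protein (ZS01g0695100), between 4.46 and 4.60. EPIDERMAL PATTERNING FACTOR-like protein 1 (ZS02g0640000), a small secreted signal, stood at 3.03, 0.391 and 0.504 FPKM in the dark libraries and at 0.414, 29 and 0.885 FPKM in the light libraries. All but S6 of these were above every dark library, and most were also high at 1 day.

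Among loci chosen by the same rule, the most negative difference was that of pathogenesis-related protein 1 (ZS05g0609900, -5.11). Putidaredoxin (ZS09g0370200), an iron-sulfur electron carrier, stood at 47.5, 27.5 and 30.2 FPKM in the dark libraries and at 37.3, 0.0679 and 29.7 FPKM in the light libraries, a difference of -4.87. The 60-min library alone was near 0. Universal stress protein A-like (ZS05g0355900) stood at 0.40, 88.3 and 107 FPKM in the dark libraries and at 20.02, 3.09 and 12.7 FPKM in the light libraries. RADIALIS-like 3 (ZS03g0150000), a small MYB-related protein, stood at 0.829, 16.6 and 29.2 FPKM in the dark libraries and at 31, 0.218 and 7.11 FPKM in the light libraries. Both were also low at 1 day. MYB59 (ZS01g0815200, -4.58) and lipid-transfer protein 1 (ZS12g0022700, -4.56) came next. A pentatricopeptide repeat protein (ZS04g0358200, -4.34), the gibberellin-responsive protein 2 (ZS07g0481900, -4.34), the transporter arsB (ZS10g0441100, -3.68) and NAC21/22 (ZS08g0123100, -3.61) completed the 10 lowest. Among loci below all dark libraries, SEC13 homolog B (ZS02g0042400), a coat protein of vesicles, stood at 2.23, 19.7 and 19.8 FPKM in the dark libraries and at 1.82, 0.773 and 1.59 FPKM in the light libraries. UDP-glucose 6-dehydrogenase 5 (ZS12g0272200), which makes a precursor of wall sugars, stood at 6.49, 19.3 and 25.1 FPKM in the dark libraries and at 22, 1.49 and 30.8 FPKM in the light libraries. SEC13 was low in all 3 light libraries and also at 1 day of darkness, and the dehydrogenase was low at 60 min alone among the light libraries.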

How the data were processed

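Total RNA of mesocotyl pools was selected for poly(A), converted to cDNA and sequenced in read pairs, per the labels' protocols. The authors deposited 1 table of FPKM per assembled locus for 6 libraries, per the file headers, with product names by similarity and with a p-value and a q-value column whose comparison the header does not name; those columns were not used. Which aligner and counter made the FPKM values was not stated in the sources used here. Bowtie 0.12.2 and the mouse build mm8 stand in the submitters' processing notes with no role.

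From the table, loci at 1 FPKM or more in either library were kept, log2((FPKM + 1)/(FPKM + 1)) was computed, and loci were called at 2-fold (Python 3.11.15, pandas 2.3.3, numpy 2.4.6, matplotlib 3.10.9). The scripts were tested on simulated data. Each group is 1 library, so no test was run. The total of reads per library is unknown: of 1017 loci under 0.1 FPKM in both libraries, 2.65% lay within 0.3% of the most common ratio step, so whole reads were not recovered and no interval is given. The library kit marks no strand, so a gene and its antisense partner cannot be told apart. Of the loci compared, 682 carry several gene names, and some gene names cover several assembled loci, in which case the values are those of 1 of them. Closely related genes may share reads, so single members of families are uncertain.

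Gene lists (69, by product name) cover light signalling, photosynthesis, ribosomes, hormones, walls, cell division, surface, transcription factors, stress, metabolism, transport and marker genes. Members, lists and comparison were chosen with earlier results of these data known, and the lists' search words were cleaned after product names and values were seen. Named loci are the 10 highest and 10 lowest with an informative product name and a value above 0 in all 6 libraries, the same among loci outside the dark range, up to 4 per list with at least 5 FPKM in either library, all members of lists of 8 or fewer, and the photoreceptor, HY5, COP1, PIF, GLK, gibberellin oxidase and TIFY loci. Names given only as clones, expressed proteins or transposons were treated as uninformative. Of the gene names, 0 matched the reference table, so no coordinates or sequences are given. The alternatives tried were other pseudocounts, a filter at 5 FPKM and none, a 4-fold limit, other scalings, other dark controls and a 2-fold distance from the dark range.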

Additional observations from a re-analysis of the deposited data

How the results depend on the processing

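Counts of higher and lower loci were 3512 and 3039 as reported, with 2822 above and 917 below all dark libraries. With a pseudocount of 5 they were 1379, 966, 1063 and 305, and with a filter at 5 FPKM 2285, 1681, 1761 and 526. At a 4-fold limit 885 were higher and 486 lower. Against the 3-day dark library 5711 loci were higher, and against the 1-day dark library 1296 were lower. Asking for a 2-fold distance from the highest and the lowest dark library left 1316 and 213. The cause of these shifts was not tested beyond what each setting does by construction. Of all calls, 53.6% were higher as reported, 72.98% against the 3-day and 77.2% against the 1-day dark library, where the median over all loci was 0.45 and 0.35, and 64.6% at 4-fold. Scaling by the median of ratios gave 3068 higher and 3071 lower loci (50.0%), with 2076 above and 1180 below all dark libraries. List medians had the other sign for 29 of 68 lists against the 1-day dark library and for 15 of 68 against the 3-day library. Among lists with a reported median of 1 or more in size, these were carbon fixation (4.27 and 2.69 against the 3-day and 1-day library) and, against the 1-day library, xyloglucan endotransglucosylases (-0.90), arabinogalactan proteins (-0.99), dirigent proteins (0.65), tubulins and actins (-0.55) and metallothioneins (3.64); the cause was not tested. Under the median-ratio scaling 3 of 68 changed sign, none of them above 0.06 in reported size. With the filter at 5 FPKM 7 of 68 changed sign, none above 0.13 in reported size. That filter moved the medians of receptor kinases (0.05 to 0.62), lipid-transfer proteins (0.46 to 1.20), other cytochrome P450 loci (-0.39 to -0.93) and auxin transport (-0.12 to 0.42). With no filter on low values 8 changed sign, among them the seed (-0.99 to 0.06) and vascular (-0.37 to 0.02) markers, and without loci listed at 0 in either library 3 did, among them the root markers (-0.80 to 0.19). No paired analysis was possible because each group is 1 library, and for the same reason no replicate could be left out. Depth is unknown, so differences of loci near 1 FPKM, and values listed at 0, are the least certain.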
